A study of Mus musculus with 12 samples.

Results

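The 10 genes described here mark the stem cells of the intestinal crypt or are targets of Wnt signalling there: Lgr5, Ascl2, Smoc2, Olfm4, Axin2, Rnf43, Znrf3, Sox9, Lrig1 and Ephb2. They were taken by gene symbol from a table of 25904 symbols, and all 10 were found. Of the 15246 genes that reached at least 1 CPM (reads of a gene scaled to the library's total) in at least 3 libraries, 9 belong to this set, and Olfm4 stayed below that level. The samples were colon from SPF (specific pathogen free) mice, 7 weeks old per the labels, given 3% dextran sulfate sodium (DSS), a polymer that damages the gut lining and is used to set off colitis. Mid-colon was harvested on days 0, 2, 4 and 6 of a 6-day course and sequenced as bulk poly(A) RNA, with 3 libraries per day and 12 in all. The labels give neither strain nor sex. The design also names mice on clean water, but no library after day 0 carries that label, so day 0 was the only reference and DSS cannot be told apart from the day of harvest or from age. Whether replicates are separate animals is not stated, and the p-values therefore reflect the spread among these libraries alone, part of which may be technical.

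The colonic epithelium is renewed from stem cells at the base of the crypts. Wnt ligands from the surrounding stroma hold beta-catenin stable in these cells, where it acts with TCF factors on target genes, and R-spondins amplify the signal through receptors of the Lgr family. R-spondins do so by removing the ubiquitin ligases Rnf43 and Znrf3, which otherwise clear the Wnt receptors from the cell surface. Axin2, Rnf43 and Znrf3 are themselves Wnt targets and act as negative feedback on the pathway.

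Depth was 31058911 to 41011004 reads per library. The labelled tissue was checked against marker lists. 5 colon identity genes summed to 1873.8 to 19963 CPM per library, whereas 6 small intestine genes summed to 1.04 to 9.16 CPM. Summed epithelial markers (11 genes) lay at 9802 to 13554 CPM on day 0, 9755 to 12441 CPM on day 2, 8653 to 10207 CPM on day 4 and 3952 to 11912 CPM on day 6. Summed fibroblast markers (10 genes) spanned 1891 to 2665 CPM at day 0 and 3563 to 6044 CPM at day 4. At day 6 they spanned 5307 to 12125 CPM. Of the 10 genes, 8 were called higher at day 4 and 8 at day 6, against 21.2% and 23.5% of all genes. Summed smooth muscle markers (8 genes) spanned 8387 to 11127 CPM at day 0 and 11886 to 14691 CPM at day 2. They spanned 4096 to 6560 CPM at day 4 and 3018 to 7665 CPM at day 6. Called lower were 3 genes at day 4 and 5 at day 6, against 12% and 12.4% of all genes. Day 6 replicate 2 stood apart, with 3952 CPM of epithelial markers against 7238 and 11912 in replicates 1 and 3. Differences between days 0 and 6 without that library are plotted for the 9 genes tested. The text gives them for all but Znrf3 and Lrig1. Day 6 ratio means and values relative to the epithelium include that library. In bulk tissue, fewer cells of a type and less RNA per cell cannot be told apart.

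**Figure D1:**
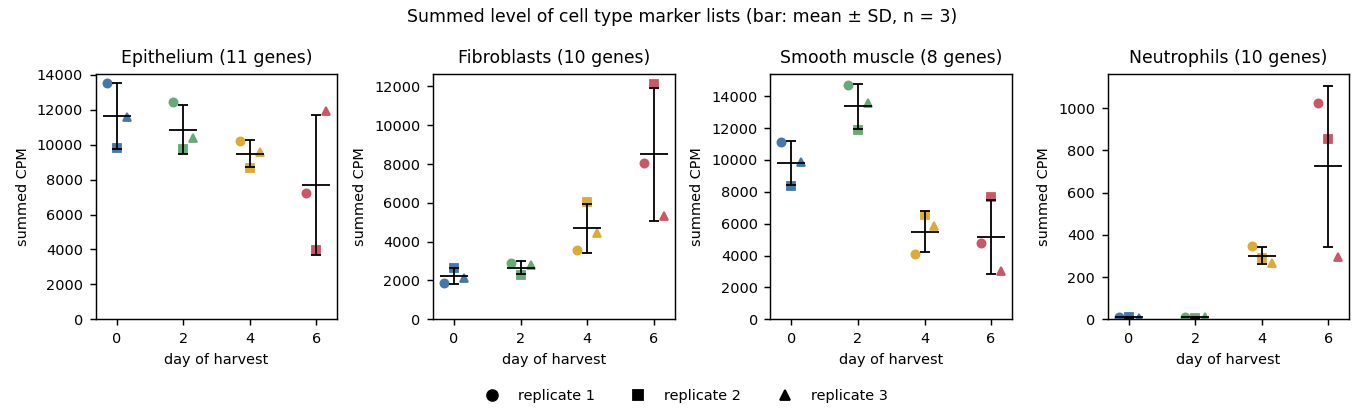
Summed CPM (y axis) of the epithelial, fibroblast, smooth muscle and neutrophil marker lists in each library by day of DSS (x axis). Points are libraries. Epithelial markers span 3952 to 11912 CPM at day 6, the widest range of the 4 days, and fibroblast markers are higher at days 4 and 6 than at day 0 in every library.

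Sequence upstream of a pair of the genes is shown because Axin2 is a standard readout of Wnt feedback and Ascl2 the transcription factor of the stem cell state. The 250 bases before the start of each gene are given 5′ to 3′ on the gene's strand, from RefSeq on GRCm38.p6, at chr11:108920099-108920348 (plus strand) for Axin2 and at chr7:142969265-142969514 (minus strand) for Ascl2.
Axin2: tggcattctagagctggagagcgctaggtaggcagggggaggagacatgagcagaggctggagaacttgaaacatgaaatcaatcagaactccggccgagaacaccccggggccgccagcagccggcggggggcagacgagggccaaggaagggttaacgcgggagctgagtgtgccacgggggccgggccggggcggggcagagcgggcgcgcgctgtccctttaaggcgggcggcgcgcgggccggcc
Ascl2: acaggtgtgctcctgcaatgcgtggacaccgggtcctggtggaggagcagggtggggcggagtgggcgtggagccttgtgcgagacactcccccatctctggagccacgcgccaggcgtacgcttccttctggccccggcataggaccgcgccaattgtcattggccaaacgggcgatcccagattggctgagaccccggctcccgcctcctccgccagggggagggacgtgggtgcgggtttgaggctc
RefSeq promoters were matched for 6 of the 10 genes, in 7 windows. The TCF forms CTTTGAT and CTTTGAA, the core CTTTG that both contain, and the palindromic E-box CAGCTG were searched on both strands. None of the 7 windows holds any of them. Over 32851 promoter windows of 250 bases the shares with a match were 3.21%, 4.46%, 48.6% and 13% in that order. The search says only that these letters are not in these windows. The core was added after the longer forms gave no match.

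The calls differed among the genes. Lgr5, Axin2, Sox9 and Ascl2 were called lower at day 6 than at day 0, Smoc2 was called higher, and Rnf43, Znrf3, Lrig1 and Ephb2 passed in neither direction. Day 4 had Lgr5 and Axin2 lower and Ephb2 higher. Of the 12 fits that left out 1 library, 7 lost the call of Smoc2 at day 6 and 5 that of Ephb2 at day 4. The call of Ascl2 at day 6 was lost in 4 and that of Axin2 at day 4 in 3. At day 2 no gene of the set passed by limma, although the libraries of 6 lay wholly below those of day 0, against 12% of all genes. The F test over the 4 days called 5 of 9 (Lgr5, Ascl2, Smoc2, Axin2 and Sox9), against 43% of all genes tested, and 6 had an unadjusted p under 0.05. Called here means a limma p under 0.05 after Benjamini-Hochberg adjustment over all genes tested. Fold changes from limma were computed from log2(CPM + 1), a scale that shrinks the changes of low genes. Those from edgeR and DESeq2 were computed on recovered reads. Where a fold change is followed by ±, the value is its standard error (SE).

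Counts of limma calls and of groups without overlap are read against all genes tested. Counts by unadjusted p, edgeR or DESeq2, here and elsewhere, have no such share beside them. Among limma fits at other settings, only that without day 6 replicate 2 has one. At day 2 limma called 0 of 9 genes, with 0.203% of all genes lower and 0.118% higher. At an unadjusted p under 0.05, 3 were lower and 0 higher, edgeR also called 0, and DESeq2 called 2 lower, Axin2 (adjusted p = 0.000349) and Ascl2 (adjusted p = 0.00538). The libraries of 6 genes lay below day 0 without overlap, against 12% of all genes. Without day 6 replicate 2, 4 of 9 were called lower at day 2 (Lgr5, Ascl2, Axin2 and Rnf43), against 2.3% of all genes.

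At day 4, 2 of 9 were lower and 1 higher, against 12% and 21.2% of all genes (33.2% in either direction). Groups did not overlap for 4 lower genes and 1 higher gene, against 20% and 34%. At day 6, 4 were lower and 1 higher, against 12.4% and 23.5%, and 4 lower genes and 0 higher genes did not overlap with day 0, against 14.4% and 26.6%. The median of the 9 genes was -0.59, -0.30 and -0.74 at days 2, 4 and 6, beside 0.043, 0.135 and 0.137 over all genes tested. Between days 2 and 4, Ephb2 alone was called, as higher, against 21% of all genes. The libraries of 2 genes, Ephb2 and Ascl2, were higher with no overlap, against 34.8%, and 0 were lower, against 24.3%. From day 4 to day 6 limma called 0 of 9, against 0.951% lower and 1.9% higher, with 1 lower and 1 higher at an unadjusted p under 0.05. Without overlap, Ephb2 was lower, against 12.5% of all genes, and 0 were higher, against 9.88%. There edgeR called 0 and DESeq2 1, Smoc2 (1.38, adjusted p = 0.0144). Comparisons with day 0 share its 3 libraries.

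**Figure D2:**
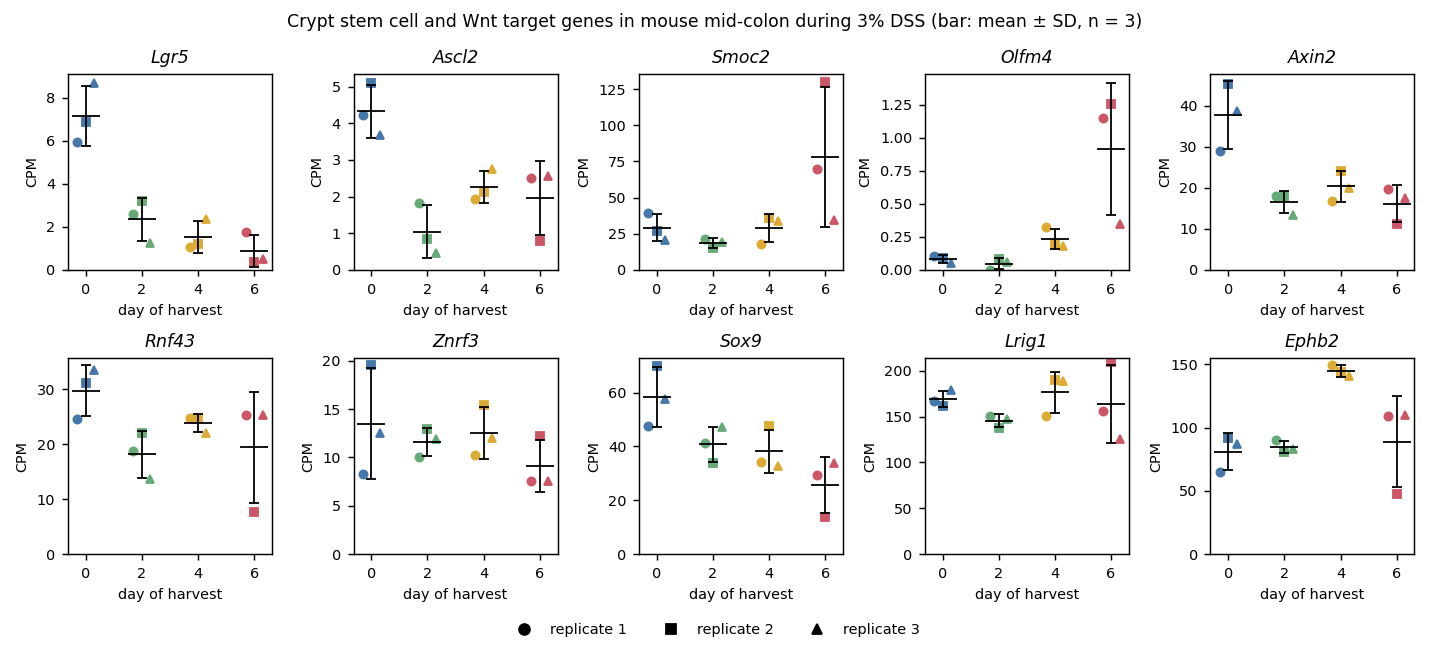
Level in CPM (y axis, from 0, 1 panel per gene) of the 10 genes in each of the 12 libraries by day of DSS (x axis). Points are libraries and the bars are the mean and SD over 3 libraries. Lgr5 lies highest in all 3 day 0 libraries, Ephb2 in all 3 day 4 libraries, and Smoc2 reaches its highest value in day 6 replicate 2.

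Lgr5, an R-spondin receptor and the marker of cycling crypt base stem cells (GRCm38 chr10:115450311-115587780, minus strand), had the largest fall of the set at days 4 and 6. It stood at 5.94, 6.88 and 8.69 CPM in day 0 replicates 1, 2 and 3, at 2.59, 3.19 and 1.26 CPM at day 2, at 1.04, 1.19 and 2.37 CPM at day 4, and at 1.76, 0.365 and 0.529 CPM at day 6. Every day 0 library was above every later one, while days 2, 4 and 6 overlapped among themselves. The counts behind these values were 221 to 331 reads per library at day 0 and 14 to 72 at day 6, so the later values carry a wider counting error. From 7.17 ± 1.39 CPM (SD, n = 3) at day 0, the level fell to 1.53 ± 0.725 at day 4 (log2 fold change -1.71 ± 0.32, adjusted p = 0.00192) and to 0.884 ± 0.760 at day 6 (-2.18 ± 0.32, adjusted p = 0.00034, and -1.98 with an adjusted p of 0.000894 without day 6 replicate 2). At day 2 it stood at 2.35 ± 0.985 CPM, a log2 difference of -1.32 ± 0.32 that limma did not call (adjusted p = 0.122). Without day 6 replicate 2, which enters this comparison only through the shared variance, that adjusted p was 0.0368. The day 4 and day 6 calls held in all 12 fits that left out 1 library.

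Ascl2, the basic helix-loop-helix factor that sets the stem cell programme (chr7:142966829-142969264, minus strand, the upstream sequence of which is printed above), followed another course. It stood at 4.22, 5.11 and 3.67 CPM at day 0, 1.84, 0.852 and 0.449 at day 2, 1.93, 2.12 and 2.76 at day 4 and 2.51, 0.783 and 2.57 at day 6. All later libraries were below all day 0 libraries, and the lowest single value was in day 2 replicate 3. The day 4 libraries lay above those of day 2 with no overlap (0.73, adjusted p = 0.087). The means were 4.33 ± 0.723, 1.05 ± 0.713, 2.27 ± 0.433 and 1.95 ± 1.01 CPM in day order (SD, n = 3). The differences from day 0 were -1.43 ± 0.30 at day 2 (adjusted p = 0.0949), -0.71 at day 4 (adjusted p = 0.0938) and -0.91 at day 6 (adjusted p = 0.0352). The day 6 call was lost without day 0 replicate 1, 2 or 3 (adjusted p = 0.0786, 0.0970 and 0.0566) and without day 6 replicate 2 (-0.58, adjusted p = 0.103). Without day 6 replicate 2, Ascl2 was instead called lower at day 2 (adjusted p = 0.00967) and day 4 (adjusted p = 0.0277), and higher at day 4 than at day 2 (adjusted p = 0.0250), as it also was without day 2 replicate 1 (0.99, adjusted p = 0.0353).

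Smoc2, a secreted matricellular protein of the Lgr5 stem cell signature that stromal cells also make (chr17:14279506-14404790, plus strand), went the other way at day 6. It stood at 39.4, 27.2 and 21.0 CPM at day 0, 21.6, 14.8 and 19.6 at day 2, 18.1, 35.9 and 33.8 at day 4 and 70.0, 129.7 and 34.4 at day 6. The highest value was in day 6 replicate 2, whereas day 6 replicate 3 overlapped the day 0 libraries. It rose from 29.2 ± 9.35 to 78.0 ± 48.2 CPM (SD, n = 3) between days 0 and 6 (log2 fold change 1.24 ± 0.42, adjusted p = 0.0393). The call was lost in 7 of 12 fits without a library: day 0 replicates 2 and 3 (adjusted p = 0.0847 and 0.131), day 2 replicates 1 and 3 (0.0520 and 0.0542), day 4 replicate 3 (0.0517) and day 6 replicates 1 and 2 (0.0963 and 0.119). The value was 0.78 without day 6 replicate 2, and without day 6 replicate 3 Smoc2 was called higher at day 6 than at day 4 (1.73, adjusted p = 0.0103). Summed fibroblast markers took the same order over the day 6 libraries, with 8069, 12125 and 5307 CPM in replicates 1, 2 and 3, and so did endothelial (394, 731 and 229 CPM), enteric nervous (186, 364 and 106 CPM) and smooth muscle markers (4793, 7665 and 3018 CPM). Their part in the Smoc2 value was not tested.

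Olfm4, a secreted glycoprotein of crypt base cells of the mouse small intestine and of human colon that neutrophil granules also hold (chr14:79984081-80023139, plus strand), was close to 0. It had 9 reads over the 3 day 0 libraries, 5 at day 2, 25 at day 4 and 108 at day 6, or 0.108, 0.0934 and 0.0525 CPM at day 0 and 1.15, 1.25 and 0.344 CPM at day 6. All day 6 libraries were above all day 4 libraries, and these above all day 0 libraries. It failed the filter on low values. In a fit with no filter its difference between days 0 and 6 was 0.78 ± 0.16 (limma adjusted p = 0.00443). That SE pools the spread of all 4 days, and days 0 and 2 had at most 4 and 3 reads per library. It therefore does not measure the spread at day 6 alone, where libraries held 13 to 48 reads. Summed neutrophil markers were 6.51 to 10.9 CPM at day 0 and 1026, 853 and 295 CPM in day 6 replicates 1, 2 and 3, where Olfm4 was also lowest in replicate 3. Of the 9 neutrophil genes tested, all 9 were called higher at day 6, against 23.5% of all genes. Among the defining genes, Ngp had 0 reads at day 0 and S100a9 stood at 0.134 CPM there against 144 CPM at day 6. Their part in the Olfm4 value was not tested.

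Axin2, a scaffold of the beta-catenin destruction complex and a direct Wnt target (chr11:108920349-108950783, plus strand), stood below its day 0 range in every later library. It stood at 28.9, 45.5 and 38.8 CPM at day 0, 18.1, 18.0 and 13.5 at day 2, 16.8, 24.2 and 20.1 at day 4 and 19.8, 11.1 and 17.4 at day 6. Day 0 overlapped with none of the later days, which overlapped with each other. Axin2 fell from 37.7 ± 8.31 CPM to 20.4 ± 3.75 at day 4 (log2 fold change -0.85 ± 0.24, adjusted p = 0.0173) and to 16.1 ± 4.49 at day 6 (-1.19 ± 0.24, adjusted p = 0.00254, and -0.96 with an adjusted p of 0.00503 without day 6 replicate 2). At day 2 it stood at 16.5 ± 2.66 CPM (-1.13 ± 0.24, adjusted p = 0.0904), which was called without day 6 replicate 2 (adjusted p = 0.0118). The day 4 call was lost without day 0 replicate 2 (-0.71, adjusted p = 0.0613), day 0 replicate 3 (adjusted p = 0.0549) or day 4 replicate 1 (adjusted p = 0.0682). The day 6 call held in all 12 such fits. Axin2 shares 209 exonic bases with the antisense gene Gm11670, and without a known strand setting reads there cannot be assigned.

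Rnf43 and Znrf3, the paired ubiquitin ligases that clear Wnt receptors, did not pass by limma in any comparison over the 12 libraries. Rnf43 (chr11:87662722-87735539, plus strand) stood at 24.6, 31.2 and 33.4 CPM at day 0, 18.8, 22.1 and 13.6 at day 2, 24.8, 24.8 and 22.0 at day 4 and 25.3, 7.73 and 25.3 at day 6. The day 2 libraries were all below day 0 (-0.70 ± 0.36, adjusted p = 0.379), and day 6 replicate 2 was the lowest of all 12. At day 6 the difference from day 0 was -0.74 (adjusted p = 0.129), against -0.21 without day 6 replicate 2 and -1.01 without day 6 replicate 3 (adjusted p = 0.0434). The day 2 value of Rnf43 was called lower without day 6 replicate 2 (adjusted p = 0.0498). Znrf3 (chr11:5276324-5444847, minus strand) stood at 8.26, 19.6 and 12.6 CPM at day 0 and 7.56, 12.2 and 7.60 at day 6, and the day 0 libraries overlapped with those of every other day. Its differences from day 0 were -0.13 ± 0.28, -0.04 and -0.47 at days 2, 4 and 6 (adjusted p = 0.84, 0.927 and 0.218), and DESeq2 called it lower at day 6 (-0.73, adjusted p = 0.0470).

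Sox9, a transcription factor of crypt stem and progenitor cells and of Paneth cells (chr11:112782224-112787760, plus strand), was lower at day 6. It stood at 47.5, 69.9 and 57.4 CPM at day 0, 41.3, 33.9 and 47.1 at day 2, 34.1, 47.4 and 32.8 at day 4 and 29.4, 13.9 and 33.7 at day 6. Each later library was below each day 0 library, the closest being 47.4 CPM in day 4 replicate 2 against 47.5 in day 0 replicate 1. Sox9 fell from 58.3 ± 11.3 to 25.7 ± 10.4 CPM (SD, n = 3) at day 6 (log2 fold change -1.23 ± 0.29, adjusted p = 0.007), and the call held in all 12 fits without a library, with -0.85 and an adjusted p of 0.00785 without day 6 replicate 2. At day 4 the difference was -0.60 (adjusted p = 0.131), called without day 6 replicate 2 (adjusted p = 0.0200) and by DESeq2 (-0.76, adjusted p = 0.0429).

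Lrig1, a negative regulator of ErbB receptors that marks a broader and slower cycling crypt population (chr6:94604529-94700158, minus strand), was not called at any day. It stood at 168, 162 and 179 CPM at day 0, 151, 138 and 148 at day 2, 151, 190 and 189 at day 4 and 157, 209 and 125 at day 6. Only the day 2 libraries were apart from day 0, all below it (-0.22 ± 0.17, adjusted p = 0.536). The differences at days 4 and 6 were 0.05 and -0.08 (adjusted p = 0.832 and 0.747). The sign at day 4 turned under other scalings, to -0.085 by median-of-ratios. Lrig1 shares 144 exonic bases with Slc25a26 on the opposite strand, which had 3357 reads over the 12 libraries, and without a known strand setting reads of the shared bases cannot be assigned.

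Ephb2, an ephrin receptor and Wnt target that grades along the crypt and positions its cells (chr4:136647539-136835988, minus strand), peaked at day 4. It stood at 64.6, 92.0 and 86.8 CPM at day 0, 90.0, 80.7 and 82.8 at day 2, 149.8, 144 and 141 at day 4 and 109, 47.7 and 109.9 at day 6. All day 4 libraries were above every library of the other days. Ephb2 rose from 81.1 ± 14.5 to 145 ± 4.47 CPM at day 4 (log2 fold change 0.84 ± 0.27, adjusted p = 0.0314), and was higher at day 4 than at day 2 (0.77, adjusted p = 0.0449). The rise from day 0 was lost without day 0 replicate 1 or 3 (adjusted p = 0.114 and 0.0596) and without day 4 replicate 1, 2 or 3 (0.0808, 0.0754 and 0.0719). At day 6 the difference from day 0 was 0.05 (adjusted p = 0.897) with all libraries and 0.45 (adjusted p = 0.0323) without day 6 replicate 2, which held 47.7 CPM against 109 and 109.9. Day 6 lay below day 4 with no overlap (-0.79, adjusted p = 0.147), and was called lower without day 6 replicate 3 (-0.99, adjusted p = 0.0356).

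**Figure D3:**
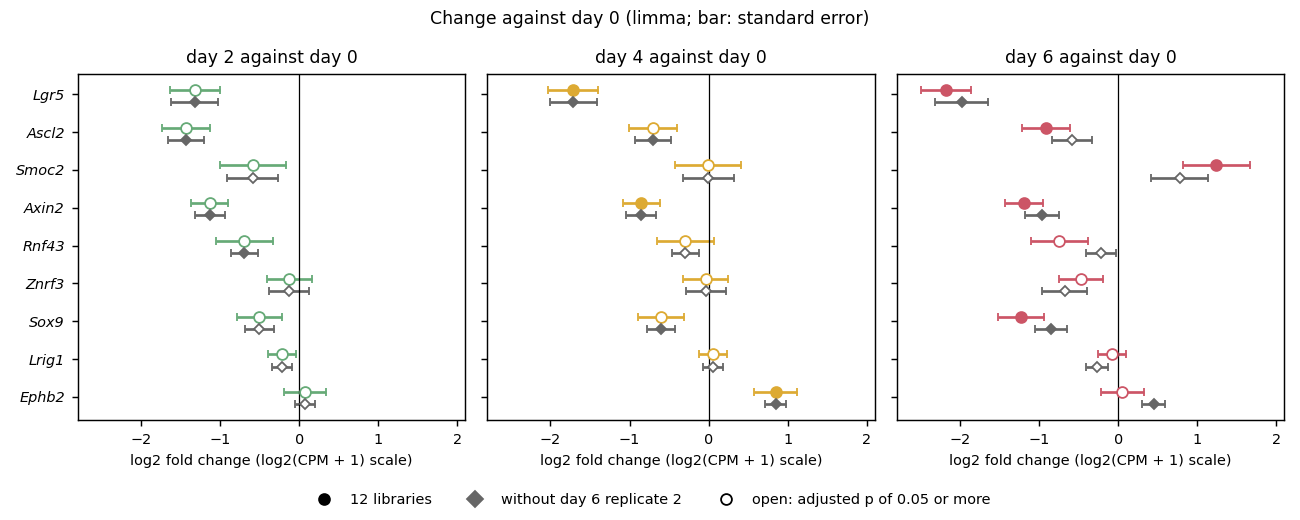
Log2 fold change of CPM + 1 against day 0 (x axis) of the 9 genes tested (y axis) at days 2, 4 and 6. Bars are 1 SE. Estimates from all 12 libraries stand beside those without day 6 replicate 2, and filled symbols have an adjusted p under 0.05. Lgr5 is the lowest at days 4 and 6, with -1.71 and -2.18, and Smoc2 the highest at day 6, with 1.24.

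Per kilobase of exon the day 0 levels ran from Lrig1 (30.3 CPM per kb) through Sox9 (14.1), Axin2 (6.85), Ephb2 (6.43), Rnf43 (4.54), Smoc2 (4.19), Ascl2 (2.67) and Znrf3 (1.71) to Lgr5 (0.699) and Olfm4 (0.0285). Lgr5 was the second lowest of the set before DSS.

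Levels relative to the epithelium were taken by rescaling each library to 11 epithelial reference genes, Epcam among them. On that scale Lgr5 was lower at day 4 (-1.51, adjusted p = 0.0201) and at day 6 (-1.71, adjusted p = 0.00541). Ephb2 was higher at day 4 (1.07, adjusted p = 0.0175) and at day 6 (0.83, adjusted p = 0.0271), and Smoc2 at day 6 (2.02, adjusted p = 0.0313). The calls of Axin2 at day 4 (-0.63, adjusted p = 0.3) and day 6 (-0.43, adjusted p = 0.285), of Sox9 at day 6 (-0.46, adjusted p = 0.206) and of Ascl2 at day 6 (-0.40, adjusted p = 0.276) were lost. The reference genes themselves had 2 of 11 called lower at day 6, against 12.4% of all genes. Day 6 replicate 2 was divided by 0.368, against 0.779 and 1.146 for replicates 1 and 3, and day 6 values on this scale are not given without it. As a log2 difference from the mean of the reference genes, Smoc2 spanned -4.25 to -3.44 at day 0 and -3.47 to 0.03 at day 6, which overlap. On that measure days 0 and 6 did not overlap for Lgr5 and Ephb2.

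Ratios between genes of the same library were taken as differences in log2(CPM + 1). The log2 ratio of Lgr5 to Ascl2 averaged 0.61 ± 0.38 at day 0, 0.72 ± 0.42 at day 2, -0.40 ± 0.21 at day 4 and -0.65 ± 0.49 at day 6 (SD, n = 3 each). Its lowest value at days 0 and 2 was 0.34 and its highest at days 4 and 6 was -0.16, so the early and late days did not overlap. An exact permutation F test over the 15400 partitions of the 12 libraries gave p = 0.00578 (0.0144 adjusted over the 5 ratios tested). The ratio of Lgr5 to Lrig1 averaged -4.39, -5.50, -6.16 and -6.49 (exact p = 0.00312, adjusted 0.0144), with day 0 apart from every later library. That of Lgr5 to the epithelial adhesion gene Epcam averaged -7.44, -8.69, -8.99 and -9.00 (exact p = 0.0215, adjusted 0.0358). Without 1 library the adjusted p of the Epcam ratio was 0.127 (day 0 replicate 2), 0.152 (day 0 replicate 3), 0.0661 (day 2 replicate 1), 0.0562 (day 4 replicate 1) and 0.0672 (day 4 replicate 2). The ratio of Lgr5 to Sox9 averaged -2.86, -3.67, -3.96 and -3.81 (exact p = 0.155, adjusted 0.194), and that of Rnf43 to Znrf3 1.15, 0.58, 0.89 and 0.88 (exact p = 0.851).

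**Figure D4:**
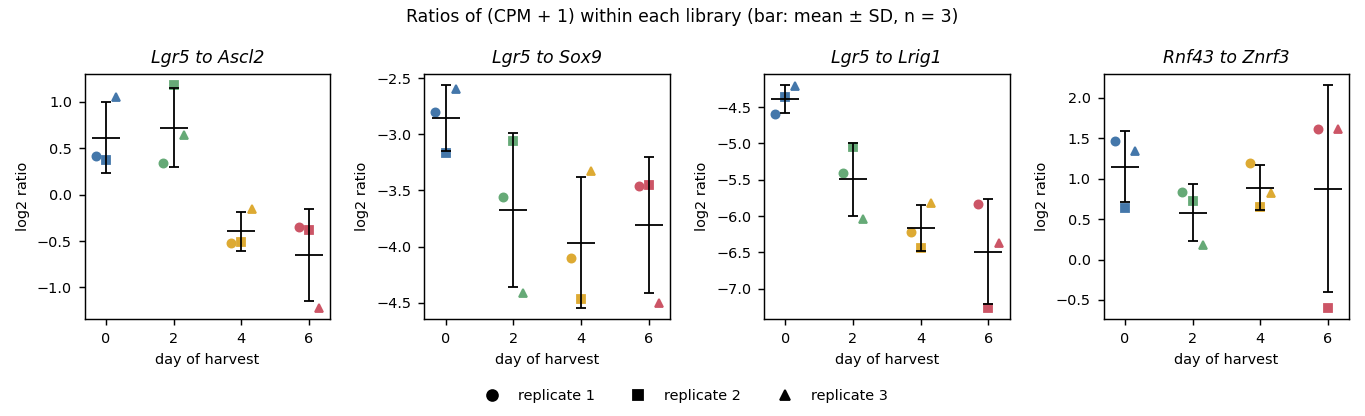
Log2 ratio of CPM + 1 within each library (y axis) of Lgr5 to Ascl2, Sox9 and Lrig1 and of Rnf43 to Znrf3, by day of DSS (x axis). Points are libraries. The Lgr5 to Ascl2 ratio averages 0.61 at day 0 and -0.65 at day 6, and no library of days 4 or 6 reaches those of days 0 and 2.

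The genes with the most similar course to Lgr5 were found by the root-mean-square difference in log2(CPM + 1) over the 12 libraries, after subtracting each gene's mean, among 14458 named genes. Closest was Gli1, the transcription factor that reads out hedgehog signalling in stroma (difference 0.344), at 22.4, 7.52, 6.39 and 4.08 CPM in day order. Next came Sord (0.377), Fut1 (0.411), Ccr10 (0.412), Efna4 (0.422), Lyplal1 (0.424), Tm7sf2 (0.429) and Insig1 (0.430). Insig1, a sterol-sensing regulator, averaged 368, 97.2, 121 and 84.6 CPM. The measure is a description over libraries that share the study's 4 days. Among the other genes of the set, Axin2 ranked 30 in likeness to Lgr5, Sox9 307, Ascl2 714 and Rnf43 842, while Smoc2 ranked 13103 of 14457.

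The rest of the pathway was followed in lists, counted here as lower or higher against day 0. The genes named are some of those that had the largest change and kept their call in all 12 fits without a library. At day 2 limma called 0 of the 104 genes tested in the 8 lists, with 17 lower and 11 higher at an unadjusted p under 0.05. There edgeR also called 0 and DESeq2 called 10 lower and 3 higher. Limma without day 6 replicate 2 called 17 lower and 3 higher, against 2.3% and 1.35% of all genes. No share of all genes is given for the unadjusted, edgeR and DESeq2 counts. All the list counts below stand beside 12% of all genes lower and 21.2% higher at day 4, and 12.4% and 23.5% at day 6. Without day 6 replicate 2 these shares were 15.8% and 28.5% at day 4 and 11.9% and 22.4% at day 6. Of 15 further Wnt targets tested, 3 were lower and 5 higher at day 4, and 3 and 4 at day 6, with medians of 0.22 and 0.54. Leaving out day 6 replicate 2 gave 4 and 5 at day 4, 3 and 5 at day 6, and a day 6 median of 0.30. Ccnd1, the cyclin of G1 entry, rose from 92.9 ± 12.5 to 370 ± 18.4 CPM at day 4 (1.99 ± 0.41, adjusted p = 0.00354), and Myc, a growth regulator, from 24.5 ± 5.17 to 67.8 ± 12.4 CPM (1.44 ± 0.25, adjusted p = 0.00129). Tnfrsf19, or Troy, a stem cell receptor, fell from 6.28 ± 0.320 CPM to 2.15 ± 0.707 at day 4 (-1.24, adjusted p = 0.00615) and 1.57 ± 1.06 at day 6 (-1.58, adjusted p = 0.00128). Ephb3, the sister receptor of Ephb2, fell by day 6 (-0.99, adjusted p = 0.00305) and Apcdd1, a Wnt inhibitor, rose (1.58, adjusted p = 0.00039).

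Of 16 other crypt and stem cell genes, 5 were lower and 1 higher at day 4, and 6 and 1 at day 6 (medians -0.51 and -0.59). Leaving out day 6 replicate 2 gave 2 lower at day 2, and 7 lower and 1 higher at both later days. Esrrg, an orphan nuclear receptor, fell from 5.01 ± 0.346 CPM to 0.748 ± 0.179 at day 4 and 0.154 ± 0.189 at day 6 (-2.39 ± 0.20, adjusted p = 5.97e-06). Vdr, the vitamin D receptor, fell from 329 ± 52.7 to 98.5 ± 18.5 CPM at day 4 (-1.73, adjusted p = 0.00218) and Kcnq1, a potassium channel of crypt cells, fell at day 6 (-1.89, adjusted p = 0.0118). Bmi1, a polycomb protein used as a mark of reserve stem cells, rose at both days (0.73 and 0.79, adjusted p = 0.00503 and 0.00276).

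Among ligands and agonists, 3 of 10 were higher at day 4, and 4 higher and 1 lower at day 6. Leaving out day 6 replicate 2 gave 3 higher and 1 lower at day 4 and 4 and 1 at day 6. Summed fibroblast markers, given above, were higher on these days too, and over the day 6 libraries the summed ligands (212, 338 and 164 CPM in replicates 1, 2 and 3) took the same order. The part of the fibroblast markers in these counts was not tested. Rspo3, the R-spondin of crypt-base stroma, stood at 5.06 ± 0.313 CPM at day 0 and rose to 38.2 ± 12.6 at day 4 (2.65 ± 0.34, adjusted p = 0.000182) and 50.4 ± 28.1 at day 6 (2.93 ± 0.34, adjusted p = 6.75e-05). The ligand Wnt5a rose at day 4 (1.23, adjusted p = 0.00184), and Rspo1 at both days (1.30 and 1.77, adjusted p = 0.00679 and 0.00093). Rspo3 rose on the same days on which its receptor gene Lgr5 fell. Of 15 receptors and coreceptors, 1 was lower and 2 higher at day 4, and 2 and 4 at day 6. Fzd1 rose (1.34 and 1.39) and Fzd9 fell (-1.70 and -1.81), with adjusted p of at most 0.0034.

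Of 9 secreted or surface antagonists, 2 were higher at day 4 and 6 at day 6, with 0 lower. Their summed level in day 6 replicates 1, 2 and 3 was 444, 789 and 280 CPM, again in the order of the fibroblast markers, the part of which was not tested. Sfrp1, a secreted Wnt-binding protein, rose from 29.7 ± 16.2 to 155 ± 56.3 CPM at day 4 and to 227 ± 135 at day 6 (2.85 ± 0.45, adjusted p = 0.000616). Among 15 genes of the beta-catenin machinery, 3 were higher at day 4 and 1 at day 6, no more than the shares of all genes. With day 6 replicate 2 left out, antagonists had 5 higher at day 4 and 4 at day 6, and receptors 2 lower and 4 higher at day 4 and 2 and 2 at day 6. The machinery then had 4 higher at day 4, and 1 higher and 1 lower at day 6. Against the epithelial reference genes some calls were lost while the fold stayed as large or larger. At day 4 these were Rspo1 (1.34, adjusted p = 0.104), Wnt5a (1.44, adjusted p = 0.0963), Fzd1 (1.57, adjusted p = 0.0758) and Bmi1 (0.95, adjusted p = 0.218). Tnfrsf19 lost its calls with a smaller fold at day 4 (-1.03, adjusted p = 0.233) and day 6 (-0.92, adjusted p = 0.131), as did Ephb3 at day 6 (-0.22, adjusted p = 0.615).

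**Figure D5:**
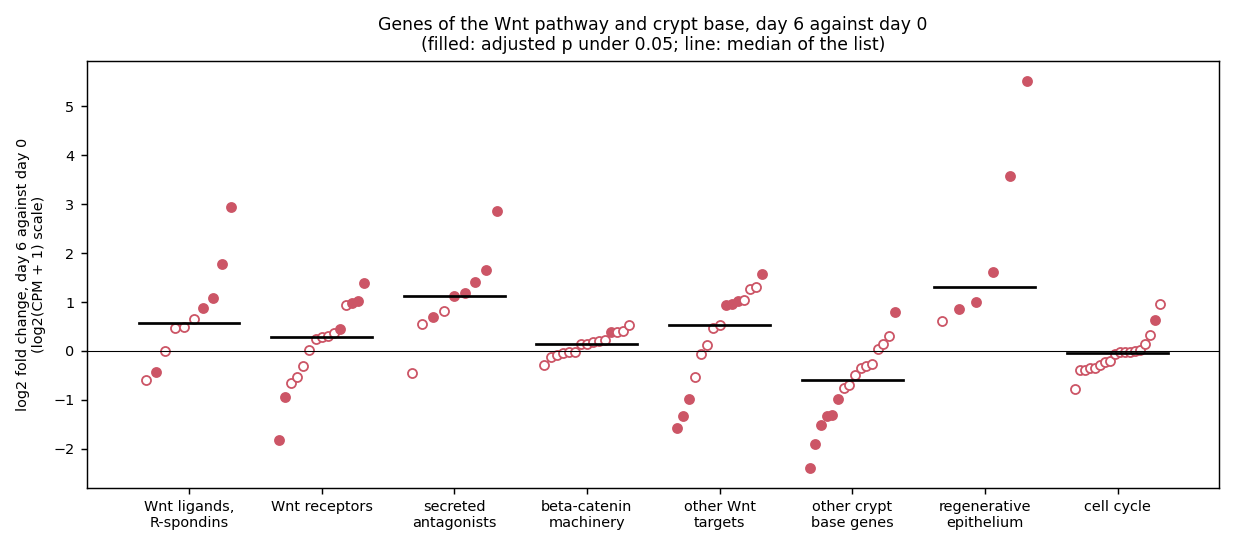
Log2 fold change of CPM + 1 between days 0 and 6 (y axis) of the genes tested in 8 pathway and crypt lists (x axis). Points are genes, and the line of each list is its median. The median is -0.59 for other crypt and stem cell genes, 0.54 for Wnt targets (0.30 without day 6 replicate 2) and 1.31 for regenerative genes.

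Regenerative genes, which the fetal-like epithelium of injured gut expresses, had 5 of 6 higher at both days. Without day 6 replicate 2, 6 were higher at day 4 and 4 at day 6. Markers of leukocytes other than neutrophils had 4 of 7 higher and 1 lower at day 4, and 6 and 1 at day 6. Endothelial markers had 1 of 6 higher at day 4 and 4 at day 6. The part of these cells in the regenerative counts was not tested. Ly6a, the Sca-1 antigen, rose from 91.6 ± 21.9 to 1566 ± 129 CPM at day 4 (4.10 ± 0.26, adjusted p = 1.22e-06) and Ereg, an EGF receptor ligand, from 3.17 ± 1.24 to 103 ± 44.8 CPM (4.59 ± 0.54, adjusted p = 8.87e-05). Of 18 proliferation genes, 7 were higher at day 4 and 1 at day 6, the former above and the latter below the share of all genes. The ribonucleotide reductase subunit Rrm2 rose from 18.7 ± 1.74 to 72.2 ± 11.1 CPM at day 4 (1.89 ± 0.37, adjusted p = 0.0026). Without day 6 replicate 2, 14 of 18 proliferation genes were lower at day 2, 15 higher at day 4 and 7 higher at day 6, and the library left out held 437 CPM of their sum at day 6 against 1261 and 1153. At day 4, Lgr5 and Axin2 were called lower in the same libraries in which Ccnd1, Myc and Ephb2 were called higher. Of these calls, that of Axin2 was lost in 3 and that of Ephb2 in 5 of the 12 fits that left out 1 library. Scaled to the epithelial reference genes, Axin2 was not called (limma adjusted p = 0.3), while Lgr5 and Ephb2 were. The part of stromal cells and leukocytes in the Ccnd1 and Myc values was not tested.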

How the data were processed

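Total RNA of mouse colon was poly(A)-selected and sequenced as 12 libraries, 3 per day, in a protocol that marks the second strand, per the labels' protocols. The authors aligned reads to mm10 with HISAT2 2.2.1 and counted them with featureCounts 2.0.1, as the submitters' processing notes record. No source used here gives the annotation or the strand setting. The authors deposited a table of CPM values for 25904 symbols, with column sums of 992026 to 998040, and 0 columns were left unmapped. In every library 100% of values were within 0.1 of a whole number of reads, so reads were recovered for count tests. The depth of 31058911 to 41011004 reads puts 1 read below 0.1 CPM. Intervals were not computed, and read counts cover counting error only.

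Days were taken from the time point labels and replicate numbers from the titles. The 15246 genes that reached 1 CPM in 3 or more libraries were tested with limma 3.58.1 in R 4.3.3 on log2(CPM + 1), fitting 4 day means and 1 residual variance over the 12 libraries, with trend and robust moderation, Benjamini-Hochberg adjustment over all genes tested and a threshold of 0.05. Adjusted p-values for genes are from limma unless another tool is named. Alternatives were edgeR 4.0.16 (quasi-likelihood) and DESeq2 1.42.0 on recovered reads, other pseudocounts, filters and scalings, the replicate number as a block, and each library left out. The limma fit was also run on simulated counts, with the same dispersion for all genes and no outlying library. The outcome is not given here and is not used as support for any result. Ratios were tested by an exact permutation F test. The members and gene lists were chosen with earlier results of these data known. From each list, up to 3 genes per direction and day with the largest change among those past the threshold were eligible to be named. Alternatives for these list genes were added after seeing the data. Gene positions and exon lengths are from GENCODE M21 on GRCm38.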

Additional observations from a re-analysis of the deposited data

Results flagged for a closer look

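The effect on Ephb2 at day 4 differed from that at day 2. Against day 0, Ephb2 differed by 0.07 at day 2 and by 0.84 at day 4, and the difference between the 2 days was 0.77 on the log2(CPM + 1) scale (limma adjusted p = 0.0449), with all 3 day 4 libraries above all 3 day 2 libraries. The call was lost in 8 of 12 fits that left out 1 library, with adjusted p from 0.0539 to 0.118: day 0 replicates 2 and 3, day 2 replicates 1, 2 and 3, and day 4 replicates 1, 2 and 3. It was also lost with median-of-ratios scaling (adjusted p = 0.0859), TMM scaling (0.0871), no filter (0.0691) and edgeR (0.0763).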

How the results depend on the processing

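Depth limits Lgr5, with 14 to 72 reads per library at day 6, and Olfm4, with at most 48. Counts of the 9 genes called moved with the setting, as follows by over 1.5 times. At day 2, 0 lower became 2 by DESeq2. At day 4, 2 lower became 1 for genes averaging at least 5 CPM and 1 with epithelial scaling, and 1 higher became 0 with median-of-ratios, TMM and edgeR. At day 6, 4 lower became 2 at 5 CPM and 1 with epithelial scaling, and 1 higher became 0 with median-of-ratios and TMM and 2 with epithelial scaling. Between days 2 and 4, 1 higher became 0 with no filter, median-of-ratios, TMM and edgeR. From day 4 to day 6, 0 higher became 1 by DESeq2. The 5 genes of the F test became 3 at 5 CPM. Smaller moves were 3 lower at day 4 by DESeq2, 3 lower at day 6 with a pseudocount of 0.1, no filter and edgeR and 5 by DESeq2, and 6 by the F test with no filter and 4 with epithelial scaling. The cause of these shifts was not tested, except that the 5 CPM filter removes Lgr5 and Ascl2 by construction.

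Without 1 library each, lower and higher counts ranged over 0 to 4 and 0 to 0 at day 2, 1 to 4 and 0 to 1 at day 4, 3 to 5 and 0 to 1 at day 6, 0 to 0 and 0 to 2 from day 2 to 4, and 0 to 1 and 0 to 1 from day 4 to 6. The F test gave 3 to 7. The shares of all genes called moved too. Without day 6 replicate 2 they were 2.3% lower and 1.35% higher at day 2, against 0.203% and 0.118% with all libraries. For the other fits that left out 1 library, and for the settings above, no share of all genes is given. Adjusted exact p ranged over 0.0166 to 0.0282 for Lgr5 to Ascl2, 0.00617 to 0.031 for Lgr5 to Lrig1, 0.0237 to 0.152 for Lgr5 to Epcam, 0.119 to 0.458 for Lgr5 to Sox9 and 0.0763 to 0.963 for Rnf43 to Znrf3.

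Several signs reversed. Of these results, Wls at day 6 had been called, as lower (-0.44, adjusted p = 0.0286), and Rnf43 and Znrf3 at day 6 had stood at -0.74 and -0.47 with no call. With epithelial scaling the values were Ascl2 (0.12), Axin2 (0.19), Rnf43 (0.079), Znrf3 (0.099) and Lrig1 (0.43) from day 4 to 6, Smoc2 (0.21) and Znrf3 (0.17) at day 4, Sox9 (0.11) from day 2 to 4, and Rnf43 (0.0018), Znrf3 (0.27), Lrig1 (0.71) and Wls (0.35) at day 6. Lrig1 at day 4 was -0.085 by median-of-ratios, -0.083 by TMM and DESeq2 and -0.082 by edgeR. Ephb2 at day 6 was -0.115 by median-of-ratios, -0.109 by TMM, -0.018 by edgeR and -0.024 by DESeq2. Without 1 library each, the ranges were -0.38 to 0.12 for Ascl2, -0.71 to 0.085 for Rnf43 and -0.33 to 0.044 for Lrig1 from day 4 to 6, -0.21 to 0.29 for Smoc2, -0.32 to 0.26 for Znrf3 and -0.0010 to 0.16 for Lrig1 at day 4, and -0.27 to 0.098 for Lrig1 and -0.15 to 0.45 for Ephb2 at day 6. At day 2 they were -0.41 to 0.17 for Znrf3 and -0.081 to 0.17 for Ephb2, and from day 2 to 4 -0.061 to 0.21 for Znrf3 and -0.27 to 0.0070 for Sox9. Ascl2 at day 6 also lost its call with a pseudocount of 0.1 (adjusted p = 0.0676), no filter (0.0508) and edgeR (0.0693), Smoc2 at day 6 with median-of-ratios (0.0553), TMM (0.0543) and no filter (0.0607), and Ephb2 at day 4 with median-of-ratios (0.0764), TMM (0.0785) and edgeR (0.0722).

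Whether libraries with the same replicate number share an animal or a batch is not stated. With 3 libraries per day, correlations of their deviations from the day means cannot settle it. Deviations of same-numbered libraries correlated with a mean of 0.078 (-0.212 to 0.636, 18 pairs), against -0.040 for other pairs, and 5 of 12 libraries were closest to their own number. With the replicate block the counts stayed at 0 and 0, 2 and 1, 4 and 1, 0 and 1, and 0 and 0 in the order above, and at 5 for the F test.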
